A study of Rattus norvegicus with 4 samples.

Results

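The core genes of the integrated stress response were taken as the 10 rows of the deposited table whose symbol is Atf4, Atf5, Ddit3, Ddit4, Trib3, Asns, Chac1, Sesn2, Cebpb or Ppp1r15a. These are 10 of 16290 genes in the table, and 10 of 10 passed the filter on low values, which asked for 10 or more in 2 or more libraries and left 12838 genes. RNA was sequenced from cultured rat cardiomyocytes, heart muscle cells of neonatal rats at postnatal day 3, to which an adenovirus vector was given, with mock as the control insert (libraries Mock 1 and Mock 2) or with Pdk3 (libraries Pdk3 1 and Pdk3 2). Pdk3 is a kinase that inhibits the pyruvate dehydrogenase complex. Cells of both groups carried an adenovirus vector and were grown in medium with horse serum and pyruvate. No group without a vector was analysed here, and neither the mock insert nor the time between vector and harvest is given in the sources used here. Whether the 2 libraries of a group stem from different cultures or animals is not stated in the labels, and p-values therefore reflect the spread between libraries alone, possibly a technical one.

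The integrated stress response is a signalling route that starts with kinases which phosphorylate the translation initiation factor eIF2 on its alpha subunit. Phosphorylated eIF2 lowers protein synthesis in general but favours translation of the mRNAs of ATF4 and a few other factors through short upstream reading frames. ATF4 then activates genes of amino acid supply, redox balance and feedback, among them Ddit3 (the factor CHOP), Trib3 and Ppp1r15a (the phosphatase subunit GADD34). In heart muscle cells the response is known to be set off by mitochondrial dysfunction, amino acid shortage and stress of the endoplasmic reticulum. Because ATF4 is controlled largely at translation, its mRNA is not a measure of its protein, and no protein was measured here.

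Across the core list, 3 genes rose with Pdk3 (Chac1, Asns and Atf4), 2 fell (Ddit3 and Ddit4) and 5 did not pass the threshold (Trib3, Atf5, Sesn2, Cebpb and Ppp1r15a). Over all genes tested, 11.7% rose and 11.3% fell (limma on the log2(value + 1) scale, Benjamini-Hochberg adjusted p under 0.05), 1496 against 1449 genes. With libraries levelled on the median of the ribosomal protein genes, that split was 929 to 3573, and the core list had 3 genes higher and 4 lower. The median log2 fold change of the core genes was 0.06, against -0.007 over all genes tested, and their range was from -0.39 for Cebpb to 0.87 for Chac1. In 6 of the 10 genes the libraries of the groups did not overlap, 3 in each direction, which is near the background of 61.0% of all genes tested, 29.9% higher and 31.1% lower. Of the 10 genes, 6 carry the annotation "response to endoplasmic reticulum stress" in the table and 7 the term "apoptotic process", and genes of both terms were found among those that rose and those that fell.

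The upstream sequences of 4 members are shown because genes of this response are known to be bound by ATF4 and its partners close to their start. They are the 250 bases before the RefSeq start of each gene (rat assembly GRCr8, not the rn6 build of the deposited table), and 10 of 10 members had an entry. 2 motifs were searched on both strands: TGATGNAA, the core of the C/EBP-ATF response element, and TGACGTCA, the cAMP response element. Capitals mark a match to either of them. No match in Ddit3 says only that these letters are not in this window.
Chac1 (chr3:126795881-126796130, plus strand): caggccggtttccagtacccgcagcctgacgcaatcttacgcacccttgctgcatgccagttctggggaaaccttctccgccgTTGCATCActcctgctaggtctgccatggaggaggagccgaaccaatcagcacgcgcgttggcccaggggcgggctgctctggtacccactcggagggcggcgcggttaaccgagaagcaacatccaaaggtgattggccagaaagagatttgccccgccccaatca
Trib3 (chr3:161275534-161275783, minus strand): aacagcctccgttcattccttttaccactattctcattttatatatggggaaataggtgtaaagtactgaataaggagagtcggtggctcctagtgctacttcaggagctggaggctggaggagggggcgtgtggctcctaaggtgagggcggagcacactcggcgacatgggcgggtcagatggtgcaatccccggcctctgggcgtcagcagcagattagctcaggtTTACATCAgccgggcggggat
Ppp1r15a (chr1:105139597-105139846, minus strand): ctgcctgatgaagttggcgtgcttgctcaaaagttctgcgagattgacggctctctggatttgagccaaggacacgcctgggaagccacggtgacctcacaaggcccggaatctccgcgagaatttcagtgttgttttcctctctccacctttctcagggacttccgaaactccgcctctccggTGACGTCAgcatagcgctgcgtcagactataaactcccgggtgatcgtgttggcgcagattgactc
Ddit3 (chr7:65001445-65001694, plus strand): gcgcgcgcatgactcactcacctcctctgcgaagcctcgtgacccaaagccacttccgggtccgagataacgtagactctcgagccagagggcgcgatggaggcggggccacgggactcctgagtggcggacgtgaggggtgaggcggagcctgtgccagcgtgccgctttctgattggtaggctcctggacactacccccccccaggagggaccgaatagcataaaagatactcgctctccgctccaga

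TGATGNAA was found in Chac1 and Trib3 on the opposite strand, as TTGCATCA between 167 and 160 bases and as TTACATCA between 21 and 14 bases before the start. These are 2 of the 10 core genes, against 3.27% of 27457 promoters of the same length, and 5 of 19 and 4 of 14 promoters of other ATF4 targets, listed by amino acid supply and by stress and growth control. It was in 2 of 12 promoters of the eIF2, eIF2B and phosphatase subunits, 0 of 8 of the kinases and their relay, 0 of 12 of the paralogs and partners and 0 of 12 of the chaperones and sensors of the endoplasmic reticulum. Ppp1r15a held TGACGTCA between 66 and 59 bases before its start, as did 1.7% of all promoters. A match is a description of the letters only, and no binding was measured.

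Atf4 (ENSRNOG00000017801, chromosome 7, 121480723 to 121482772, plus strand, rn6) encodes the transcription factor at the centre of the response. Its normalised read counts were 511 and 505 in Mock 1 and Mock 2 and 592 and 595 in Pdk3 1 and Pdk3 2. Both Pdk3 libraries lay above both mock libraries, and the libraries of a group were close together. The mean rose from 508.0 ± 4.2 to 593.5 ± 2.1 (SD over 2 libraries). The rise was 1.17-fold, and limma gave 0.22 ± 0.03 on the log2 scale (SE, adjusted p = 0.00276). Levelled on ribosomal protein genes, the value was 0.14 (adjusted p = 0.0148). Counting error alone, from the values multiplied back to reads (1058 in the mock and 1120 in the Pdk3 libraries, the latter sequenced less deeply), gave a 95% interval of 0.10 to 0.35 (exact Clopper-Pearson). The call was kept when p was floored at counting noise, that is, replaced by that of an exact binomial test on the reads summed per group where the latter was larger (adjusted p = 0.00454). It ended without an intensity trend (adjusted p = 0.0595).

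Atf5 (ENSRNOG00000020060, chromosome 1, 100808241 to 100810522, minus strand) encodes a related factor, also controlled by upstream reading frames and known for its part in the mitochondrial stress response. It had 250 and 239 normalised counts in the mock and 248 and 262 in the Pdk3 libraries. The groups overlapped, and its log2 fold change of 0.06 ± 0.06 did not pass (adjusted p = 0.493). The counting interval of -0.12 to 0.24 still holds a change of the size of that of Atf4. Levelled on ribosomal protein genes, the value was -0.03.

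**Figure D1:**
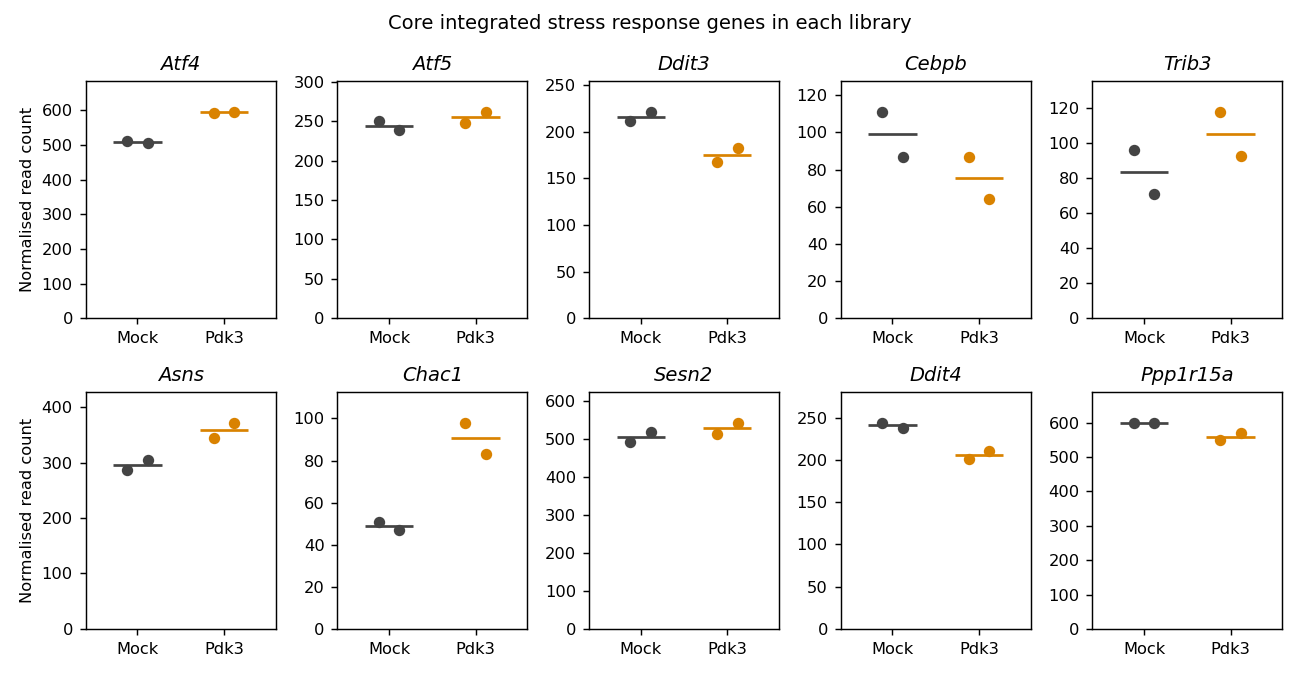
Normalised read counts (vertical axes, each starting at 0 with its own scale) of the 10 core genes in the 2 mock and the 2 Pdk3 libraries. Points are libraries and bars are group means. Chac1, Asns and Atf4 stand higher in both Pdk3 libraries, Ddit3, Ddit4 and Ppp1r15a lower in both, and the groups of the other 4 genes overlap or touch.

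Ddit3 (ENSRNOG00000006789, chromosome 7, 70580198 to 70585084, plus strand) encodes CHOP, a transcription factor that acts with ATF4 and is known for driving cell death under lasting stress. It had 211 and 221 normalised counts in the mock and 167 and 182 in the Pdk3 libraries. Both Pdk3 libraries lay below both mock libraries. The mean fell from 216.0 ± 7.1 to 174.5 ± 10.6, a level 1.24-fold lower, or -0.31 ± 0.07 on the log2 scale (adjusted p = 0.0187, kept at 0.0257 with the floor at counting noise). Its counting interval, -0.52 to -0.10, excludes the value of Atf4, its partner. The call ended without a filter on low values (adjusted p = 0.0968) and without an intensity trend (adjusted p = 0.0838). With counting noise alone it ended without Mock 1 (0.0505), without Mock 2 (0.162) and without Pdk3 1 (0.240).

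The last 72 bases of Ddit3 in rn6 (chromosome 7, 70585013 to 70585084) overlap the end of Mars, the methionyl-tRNA synthetase gene on the opposite strand. Mars had 591 and 605 normalised counts in the mock and 707 and 743 in the Pdk3 libraries, a log2 fold change of 0.28 ± 0.04 (adjusted p = 0.00163). It rose where Ddit3 fell. The strand setting of the counting is not given in the sources used here, so reads of the shared stretch cannot be assigned with certainty.

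Cebpb (ENSRNOG00000057347, chromosome 3, 164424515 to 164425910, plus strand) encodes C/EBP beta, a dimer partner of ATF4 and CHOP that is also a factor of inflammation. It had 111 and 87 normalised counts in the mock and 87 and 64 in the Pdk3 libraries. Mock 2 and Pdk3 1 had the same value, and in each group library 1 was the higher. The log2 fold change of -0.39 ± 0.18 was the lowest of the core list but did not pass (adjusted p = 0.150). It passed when scaled to ribosomal protein genes (log2 fold change -0.48, adjusted p = 0.0157). With counting noise alone, whether it passed depended on the library left out. Its log2 fold change in limma ranged from -0.61 to -0.17 across the libraries left out. With all 4 libraries it did not pass with the floor at counting noise (adjusted p = 0.203).

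Asns (ENSRNOG00000007546, chromosome 4, 33743364 to 33761163, minus strand) encodes asparagine synthetase, a classical target of ATF4 under amino acid shortage. Its normalised counts were 287 and 304 in the mock and 344 and 372 in the Pdk3 libraries. The groups did not overlap. The mean rose from 295.5 (SD 12.02) to 358.0 (SD 19.8), 1.21-fold, or 0.28 ± 0.06 on the log2 scale (adjusted p = 0.0122, kept at 0.0135 with the floor at counting noise). The call ended without a filter on low values (0.105) and without an intensity trend (0.0968). With counting noise alone it ended without Mock 1 (adjusted p = 0.109) and without Pdk3 2 (0.171).

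Chac1 (ENSRNOG00000014387, chromosome 3, 111160205 to 111163425, plus strand) showed the largest rise of the 10 genes. It encodes an enzyme that degrades glutathione and is switched on by ATF4 and its partners. It had 51 and 47 normalised counts in the mock and 98 and 83 in the Pdk3 libraries, so each Pdk3 library stood well above both mock libraries. The mean rose from 49.0 ± 2.8 to 90.5 ± 10.6, 1.85-fold, or 0.87 ± 0.13 on the log2 scale (adjusted p = 0.00373, kept at 0.00384 with the floor at counting noise). By log2 fold change it held rank 242 among the 12838 genes tested. Its level rests on few reads (102 in the mock and 171 in the Pdk3 libraries), and its counting interval of 0.53 to 1.26 lies above those of Asns (0.12 to 0.44) and Atf4. With counting noise alone it passed whichever library was left out (adjusted p between 6.9e-05 and 0.00807). The call ended without a filter on low values (adjusted p = 0.0656).

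Trib3 (ENSRNOG00000007319, chromosome 3, 147813473 to 147819571, minus strand) encodes a pseudokinase that binds AKT and restrains ATF4 and CHOP. It had 96 and 71 normalised counts in the mock and 118 and 93 in the Pdk3 libraries. Pdk3 2 lay below Mock 1, and library 1 was again the higher in each group. Its log2 fold change of 0.34 ± 0.17 was larger than that of Asns but did not pass (adjusted p = 0.194). The pair of mock libraries (83.5 ± 17.7) and the pair of Pdk3 libraries (105.5 ± 17.7) each held libraries that differed by more than the group means did. With counting noise alone, whether Trib3 passed depended on the library left out. Its log2 fold change in limma ranged from 0.12 to 0.55 across the libraries left out. With all 4 libraries it did not pass with the floor at counting noise (adjusted p = 0.26).

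**Figure D2:**
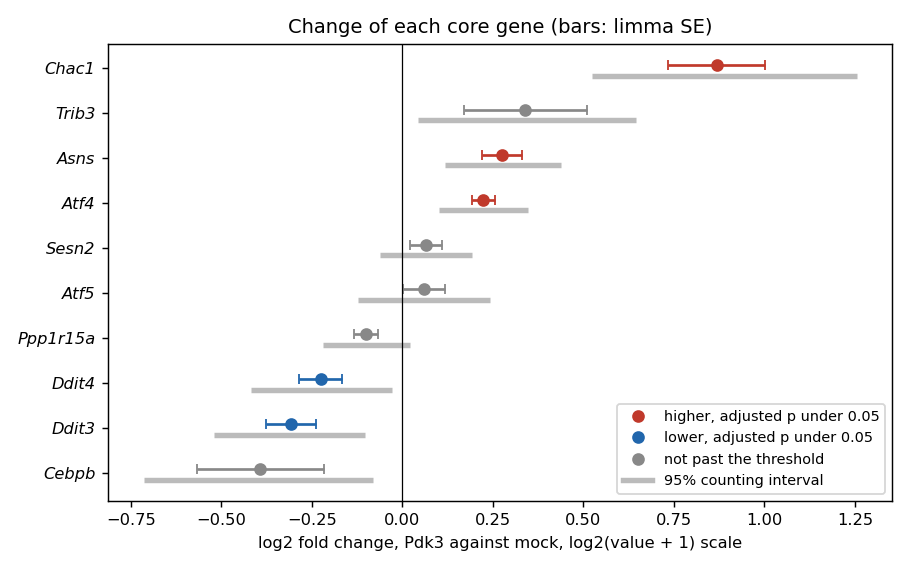
Log2 fold change of each core gene, Pdk3 against mock, on the log2(value + 1) scale (horizontal axis). Points are limma estimates with their SE over 2 libraries a group, grey bars are 95% intervals from counting error alone, and colours mark calls. Chac1 stands apart at 0.87, Asns and Atf4 lie between 0.22 and 0.28, and the calls of Ddit4 and Ddit3 lie at -0.23 and -0.31.

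Ddit4 (ENSRNOG00000057078, chromosome 20, 29509289 to 29511382, minus strand) and Sesn2 encode inhibitors of the growth kinase complex mTORC1, and both are known to be induced by ATF4 as well as by other stress factors. Ddit4 had 244 and 238 normalised counts in the mock and 201 and 211 in the Pdk3 libraries. The groups did not overlap, and the mean fell from 241.0 ± 4.2 to 206.0 ± 7.1, a level 1.17-fold lower. Its log2 fold change was -0.23 ± 0.06 (adjusted p = 0.0299). The call ended when p was floored at counting noise (adjusted p = 0.106), which left Ddit3 as the core gene that fell, against 7.45% of all genes tested falling and 8.38% rising by that rule. It ended as well without a filter on low values (0.0798) and without an intensity trend (0.0812).

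Sesn2 (ENSRNOG00000042785, chromosome 5, 150684133 to 150704117, minus strand), which encodes a sestrin that senses leucine, had 493 and 519 normalised counts in the mock and 515 and 544 in the Pdk3 libraries. Pdk3 1 lay between the mock libraries. Its log2 fold change was 0.07 ± 0.04 (adjusted p = 0.320), with a counting interval of -0.06 to 0.19, and a value of -0.02 when levelled on ribosomal protein genes.

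Ppp1r15a (ENSRNOG00000020938, chromosome 1, 101511901 to 101514974, minus strand) encodes GADD34, which brings a phosphatase to eIF2 and so closes the feedback of the response. It had 600 and 600 normalised counts in the mock and 550 and 569 in the Pdk3 libraries. Both Pdk3 libraries lay below, but the log2 fold change of -0.10 ± 0.03 missed the threshold (adjusted p = 0.0672, or 0.301 with the floor at counting noise). It passed with a minimum value of 50 (adjusted p = 0.0479) and when scaled to ribosomal protein genes (log2 fold change -0.19, adjusted p = 0.00179).

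With any 1 library left out, the limma fit had 1 residual degree of freedom. Its log2 fold changes are described here, and its calls are given further below beside those of all genes. A lone library is assumed there to vary like the other group. None of the 10 genes changed the sign of its log2 fold change when a library was left out. Chac1 ranged from 0.75 to 0.99, Asns from 0.22 to 0.33, Atf4 from 0.22 to 0.23, Ddit4 from -0.26 to -0.19 and Ddit3 from -0.37 to -0.25, as the plot of values with a library left out shows. Trib3 (0.12 to 0.55) and Cebpb (-0.61 to -0.17) moved the most.

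**Figure D3:**
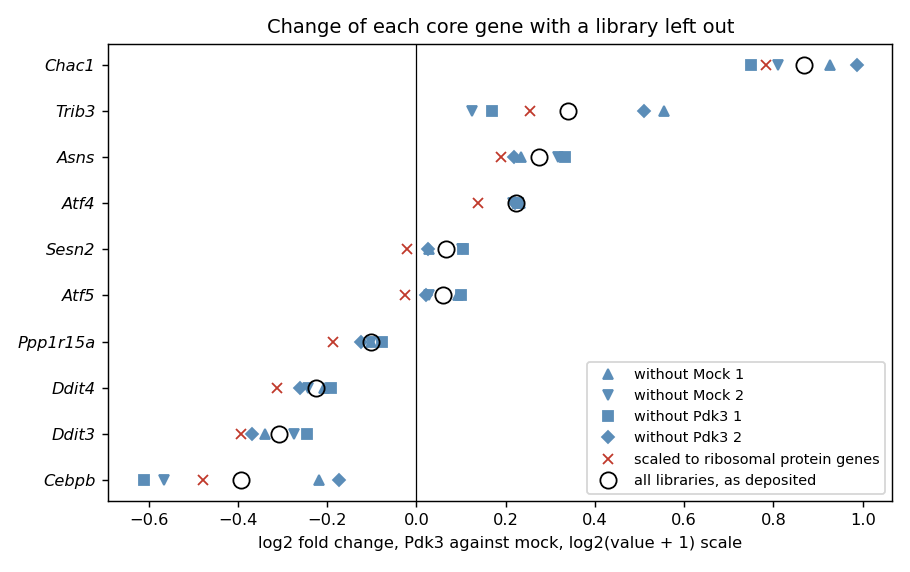
Log2 fold change of each core gene, Pdk3 against mock (horizontal axis, log2(value + 1) scale), with all 4 libraries (open circles), with each library left out (blue symbols) and scaled to ribosomal protein genes (red crosses). The symbols of Atf4 lie closest together, those of Trib3 and Cebpb lie widest, and the crosses of Sesn2 and Atf5 fall below 0.

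Upstream of the core genes, the eIF2 kinases and their relay had log2 fold changes between -0.14 and 0.09. Of 8 measured genes of the kinases and their upstream relay, 0 rose and 1 fell, against 11.7% and 11.3% of all genes tested. The counts were 0 and 2 when levelled on ribosomal protein genes, against 929 and 3573 of the 12838 genes tested. The gene that fell was Eif2ak1, which encodes the heme-regulated kinase that also relays mitochondrial stress. It had 595 and 590 normalised counts in the mock and 534 and 540 in the Pdk3 libraries, which gave -0.14 ± 0.03 on the log2 scale (adjusted p = 0.0176), and the call ended when floored at counting noise (0.106). Its value was -0.23 when levelled on ribosomal protein genes. Eif2ak2 (PKR, a sensor of double-stranded RNA) had a log2 fold change of 0.09, Eif2ak4 (GCN2, a sensor of uncharged tRNA) of 0.08 and Eif2ak3 (PERK, of the endoplasmic reticulum) of 0.03, none past the threshold (adjusted p = 0.106, 0.429 and 0.684). Oma1 and Dele1, the mitochondrial protease and its substrate that signal to Eif2ak1, had values of -0.07 and -0.02, Impact, an inhibitor of GCN2, of -0.05 and Gcn1, its activator (listed as Gcn1l1), of 0.02. The activity of these kinases lies in their protein and was not measured.

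Among 12 subunits of eIF2, its exchange factor eIF2B and the eIF2 phosphatase, 3 rose and 0 fell. Their median log2 fold change was 0.03, and 11.7% of all genes tested rose and 11.3% fell. Ppp1cb, a catalytic subunit of the phosphatase, rose by 0.12 (1164 and 1149 to 1258 and 1257, adjusted p = 0.00766, kept at 0.0296 with the floor at counting noise). Eif2s2 and Eif2s1, the beta and alpha subunits of eIF2, had log2 fold changes of 0.15 and 0.15 (adjusted p = 0.0215 and 0.0282). Floored at counting noise, both calls ended (0.0741 and 0.143). Levelled on ribosomal protein genes, 0 subunits were higher and 1 was lower, Eif2b4 (-0.19, adjusted p = 0.013). With that scaling 929 of the 12838 genes tested were higher and 3573 lower.

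Of 23 listed ATF4 targets of amino acid metabolism and transport 21 were tested, 9 rose, 0 fell and 12 did not pass, with a median log2 fold change of 0.14. Levelled on ribosomal protein genes, 8 were higher and 4 lower, Got1 was lost (0.06, adjusted p = 0.165), and Aldh1l2, Pck2, Slc1a5 and Slc38a2 passed downward. In 6 members both Pdk3 libraries lay below both mock libraries, and in 10 above, against 31.1% and 29.9% of all genes tested. Among all genes tested, 11.7% rose and 11.3% fell. Levelled on ribosomal protein genes, 929 of 12838 genes were higher and 3573 lower. All 9 list members that rose passed when floored at counting noise. The mitochondrial folate enzymes Mthfd1l (140 and 154 to 280 and 298) and Mthfd2 (209 and 221 to 403 and 420) had log2 fold changes of 0.97 ± 0.07 and 0.93 ± 0.05 (adjusted p = 0.000124 and 3.72e-05), beside 0.87 for Chac1. The arginine transporter Slc7a1 rose from 593 and 604 to 857 and 876 (0.53 ± 0.03) and the neutral amino acid transporter Slc1a4 from 347 and 347 to 459 and 445 (0.38 ± 0.04). Asns, with 0.28, lay within the range of the 9 genes that rose here, from 0.15 for Got1 to 0.97. Earlier results of these data showed the rise of part of this list, so the count is no independent support.

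ATF4 and CHOP targets of stress and growth control had 1 gene higher and 3 lower among 16 tested, with a median of -0.007. Of all genes tested, 11.7% were higher and 11.3% lower. The list had 0 higher and 5 lower when levelled on ribosomal protein genes, against 929 and 3573 of the 12838 genes tested. Bcl2l11 (BIM, a cell death activator that CHOP induces) fell from 621 and 592 to 489 and 469, by 0.34 on the log2 scale (adjusted p = 0.00108). Herpud1, of the degradation route at the endoplasmic reticulum, fell by 0.22 (672 and 675 to 589 and 565), and the autophagy adaptor Sqstm1 fell by 0.18 (902 and 909 to 805 and 788). The lipoprotein receptor gene Vldlr had a value of 0.10 (adjusted p = 0.0237, lost at 0.135 with the floor at counting noise). Atf3, a stress factor downstream of ATF4, and Gdf15, a secreted signal of mitochondrial stress, did not pass, with values of -0.02 and -0.12 (adjusted p = 0.874 and 0.165). Fgf21, a further secreted signal of that kind, was listed at 0 in all 4 libraries.

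**Figure D4:**
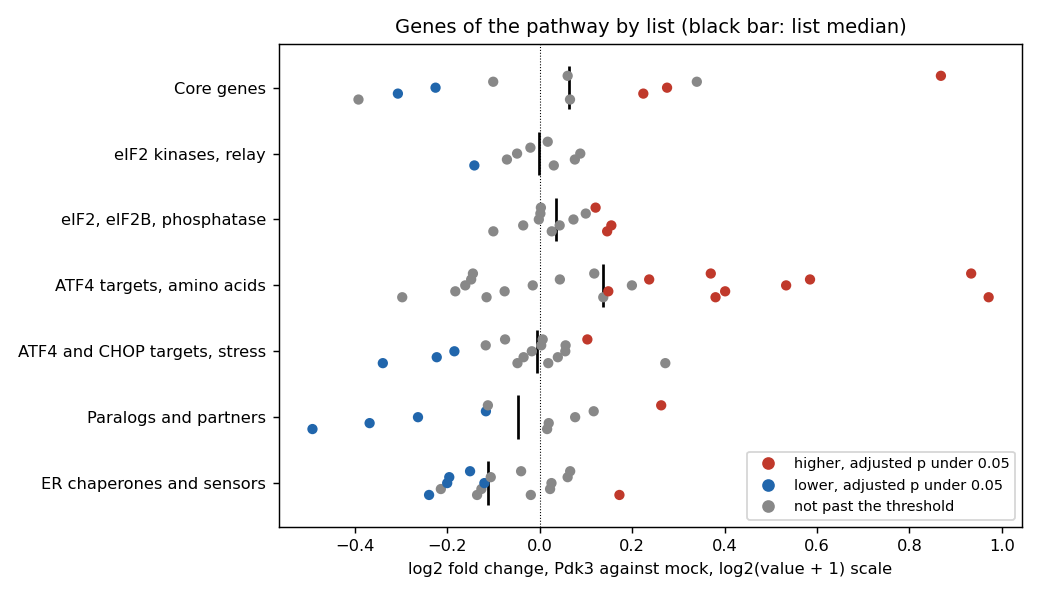
Log2 fold change of each tested gene, Pdk3 against mock (horizontal axis, log2(value + 1) scale), for the core genes and 6 other lists of the pathway. Points are genes, coloured by call, and black bars are list medians. The list of ATF4 targets of amino acid supply has 9 genes higher and 0 lower (8 and 4 when levelled on ribosomal protein genes). The list of chaperones and sensors of the endoplasmic reticulum has 1 higher and 5 lower (0 and 10 when levelled). Of 12838 genes tested, 929 were higher and 3573 lower when levelled.

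Paralogs and partners of the core genes had 1 gene higher and 4 lower among 10 tested, against 11.7% and 11.3% of all genes tested. Floored at counting noise, 1 was higher and 3 lower, against 8.38% and 7.45% of all genes tested. Cebpg, the C/EBP partner of ATF4 at amino acid genes, rose from 368 and 374 to 432 and 459 (0.26 ± 0.04 on the log2 scale, adjusted p = 0.00543), while Cebpd, a partner known from inflammation, fell from 103 and 104 to 79 and 68 (-0.49 ± 0.11, adjusted p = 0.0194). Crebrf, a negative regulator in the stress response of the endoplasmic reticulum, fell from 1025 and 1045 to 796 and 807 (-0.37 ± 0.03, adjusted p = 0.000106). The sestrin gene Sesn3 fell by 0.26 on the log2 scale (adjusted p = 0.00878). Sesn2 had a value of 0.07, in the other direction, and did not pass. Creb3l2 had a value of -0.12 (adjusted p = 0.0287), and its call ended when floored at counting noise (0.146). The other members tested (Sesn1, Trib1, Trib2, Chac2 and Cebpa) lay between -0.11 and 0.12 and did not pass, so of the paralogs of Trib3 and Chac1 none was called.

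Chaperones and sensors of the endoplasmic reticulum, which answer to the other arms of the unfolded protein response, had 1 gene higher and 5 lower among 16 tested, with a median of -0.11. The chaperone gene Hyou1 fell from 1770 and 1789 to 1536 and 1561 (-0.20 ± 0.02 on the log2 scale, adjusted p = 0.000508) and Sel1l, of the degradation complex, from 1563 and 1545 to 1372 and 1341. The sensor gene Ern1 (IRE1) fell by 0.24 and Pdia4, a disulfide isomerase, by 0.15. Atf6, the remaining member that was lower, had -0.12 (adjusted p = 0.0196, lost at 0.0826 with the floor at counting noise). Dnajb11 was the gene that rose (0.17, adjusted p = 0.0114, and 0.0976 when levelled on ribosomal protein genes), and Hspa5, the chaperone BiP, had -0.04 (adjusted p = 0.176). With that scaling the list had 0 genes higher and 10 lower. Over the 6 lists together, 15 of 83 tested genes rose and 13 fell, against 11.7% and 11.3% of all genes tested. Floored at counting noise, 12 rose and 10 fell, against 8.38% and 7.45% of all genes tested. Levelled on ribosomal protein genes, the split was 9 to 27, against 929 to 3573 over the 12838 genes tested.

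Normalised counts summed to between 4448199 and 4476649 per library, and Pdk3 itself rose from 396 and 411 to 1218 and 1177 in the Pdk3 libraries. Markers of cardiomyocytes were present, 6 of 6, with summed values of 16566 to 16726 in the mock and 16769 to 16986 in the Pdk3 libraries, 2 of them higher (Myh6 and Actn2) and 1 lower (Ryr2). Levelled on ribosomal protein genes, 0 were higher and 1 lower, and 8 macrophage, 4 fibroblast and 2 endothelial markers were lower. That scaling called 929 of 12838 genes higher and 3573 lower, with a median log2 fold change of -0.09 over all genes tested. Genes used as markers of other cells were present too, and which cells expressed them was not measured. Without that scaling, 11.7% of all genes tested were called higher and 11.3% lower, with a median log2 fold change of -0.007. The marker counts that follow are without that scaling. Macrophage markers summed to 1506 and 1602 in the mock and to 1257 and 1310 in the Pdk3 libraries, with 10 of 10 below 0 in log2 fold change, 4 of them past the threshold and none listed at 0. Fibroblast markers summed to 3855 and 3916 against 3719 and 3858, with 1 of 5 lower, endothelial markers to 783 and 835 against 760 and 779, with 1 of 4 lower, and smooth muscle markers to 2750 and 2802 against 3187 and 3216, with 3 of 4 higher. Erythroid markers summed to 45 and 47 against 13 and 17, with 2 of 2 tested rows lower. Both rows carry the symbol Hba-a2 and have low values (24 and 19 to 6 and 7, and 19 and 20 to 6 and 8). Their log2 fold changes were -1.58 and -1.37. In bulk RNA, fewer cells of a type and less RNA per cell cannot be told apart. Cebpb, Cebpd, Ddit3 and Ddit4 are expressed by several of these cell types, and the part of the cell mixture in their lower values was not tested.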

How the data were processed

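RNA from 2 mock and 2 Pdk3 libraries was measured. Per the submitters' processing notes, the tools were FastQC, Trimmomatic 0.39, STAR 2.6.1d, featureCounts 1.6.5 (Subread) and DESeq2 1.26.0, with build rn6; no settings are known from the sources used here. The deposited values are used as a score: read counts per gene that the authors normalised between libraries and rounded to whole numbers, with totals that differ by 0.64%. From skipped and doubled whole numbers, the factors behind them were estimated as 1.03, 1.06, 0.925 and 0.963 (Mock 1, Mock 2, Pdk3 1, Pdk3 2), or 4139289 to 4706785 reads in genes.

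Values were tested as log2(value + 1) with limma 3.58.1 in R 4.3.3 (intensity trend, group as the single term), on the 12838 genes that reached 10 in 2 or more libraries. P-values are two-sided and were adjusted over all of these genes by the Benjamini-Hochberg method, with 0.05 as the threshold. With 2 libraries a group an exact permutation test cannot go below p = 0.333. Counting intervals and binomial p-values use reads, the values multiplied by those factors, and cover counting error only, as no molecular identifiers mark independent molecules. Squared differences within pairs averaged 0.553 (mock) and 0.547 (Pdk3) of counting noise over genes with a mean of at least 50. These pairs thus differed on average by less than counting noise, and limma p-values without the floor may be too small. The reason was not tested. Over the core genes the averages were 0.892 (mock) and 1.06 (Pdk3).

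Other settings tried were leaving out each library, a replicate block, a TMM scaling computed from the values, scaling to 66 ribosomal protein genes, no filter, a minimum of 50, pseudocounts of 0.5 and 8, no trend, p floored at counting noise and a false discovery rate of 0.01; counting noise alone was chosen after seeing the data. The tests were tried on simulated data. The members and lists were chosen with earlier results of these data known. Named were the core genes, the eIF2 kinases and their relay, and up to 4 genes past the threshold per direction from each other list; Mars, Atf3, Gdf15, Fgf21, Got1, Atf6, Hspa5, Aldh1l2, Pck2, Slc1a5, Slc38a2, Eif2b4, Sesn1, Trib1, Trib2, Chac2 and Cebpa were named after their values were seen. Of 93 genes on the 6 other lists, 87 were found in the table, Gcn1 by its older symbol. Promoters are RefSeq's (GRCr8), 1 per symbol.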

Additional observations from a re-analysis of the deposited data

How the results depend on the processing

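The core counts, 3 higher and 2 lower, stayed within 1.5 times under TMM scaling and both other pseudocounts. Scaled to ribosomal protein genes, 4 core genes were lower (with Cebpb and Ppp1r15a), 9 and 27 other pathway genes were higher and lower, and 929 and 3573 of all genes. Without a filter on low values 1 core gene was higher (Atf4) and 0 lower (3 lower at an unadjusted p under 0.05), with 6 and 5 other pathway genes and 558 and 418 of all genes. Without an intensity trend 1 core gene was higher (Chac1) and 0 lower (2 unadjusted), with 5 and 1 other pathway genes and 526 and 325 of all genes. Floored at counting noise, 1 core gene was lower (Ddit3), and 1076 and 956 of all genes were higher and lower; counting noise alone also left 1 core gene lower, and 1139 and 1061 of all genes. At a false discovery rate of 0.01, 2 core genes were higher and 0 lower (3 unadjusted), 8 other pathway genes were lower, and 766 and 576 of all genes passed. In limma with any 1 library left out, 0 core, 0 other pathway and 0 of all genes passed in either direction, while 1560 to 1626 of all genes higher and 1354 to 1727 lower had an unadjusted p under 0.05. This fit has 1 residual degree of freedom. With counting noise alone and a library left out, 3 core genes were higher and 0 to 1 lower, 8 to 9 other pathway genes were higher and 5 to 9 lower (5, 7, 8 and 9), and of all genes 778, 793, 808 and 842 were higher and 603, 626, 641 and 750 lower. The core genes behind those counts changed with the library left out. Trib3 took the place of Asns without Mock 1 and without Pdk3 2. The lower core gene was Cebpb, not Ddit3, without Mock 2 and without Pdk3 1. The cause of these differences was not tested.

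A replicate block gave 3 core genes higher and 3 lower, with Cebpb added (adjusted p = 0.0451), and 1374 and 1298 of all genes. Same-numbered libraries showed little shared deviation (r = 0.038 across 12838 genes, which are not independent replicates). Spread within pairs averaged below counting noise, so this r cannot show whether same-numbered libraries shared a culture or a day. The labels do not say whether they did. Depth limits the low genes most: Chac1 rests on 102 and 171 reads and Cebpb on 206 and 142.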
